A study of Mus musculus with 40 samples.

Results

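Luminal epithelial cells of adult mouse mammary glands were compared between diestrus and estrus, with attention to milk protein, secretory and hormone-response genes. The members were the RNA libraries whose labels gave the cell type as luminal and the stage as adult diestrus or adult estrus, and these were 4 of the 40 libraries of the series, 2 per stage. All mice were wildtype FVB/N virgin females of 14 to 16 weeks with no agent named beside the stage, and the stage was read from vaginal smears and sections. Cells were sorted from each mouse after collagenase digestion, as cells free of blood and endothelial surface proteins with high EpCAM and intermediate CD49f, and RNA of 2 or 3 mice was pooled for each library. This gate takes hormone receptor positive and receptor negative luminal cells together, so each value is an average over both. The replicates are called estrus 1, estrus 2, diestrus 1 and diestrus 2, and number 1 or 2 stands for the earlier or later pool of a stage, or for a pooling by cell number. The luminal libraries of proestrus and metestrus, 2 each, entered the fit and are given where they place a value.

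In the estrous cycle estrogen peaks around proestrus and ovulation follows in estrus, while progesterone from the corpora lutea is high in diestrus. Luminal cells line the ducts and alveolar buds. A fraction of them carries the estrogen, progesterone and prolactin receptors and signals to its neighbours through secreted factors, and the receptor negative fraction holds the progenitors of the milk-producing alveolar cells. Milk protein genes are transcribed at low levels in virgin glands and are driven in pregnancy by prolactin through Jak2 and the transcription factor Stat5, together with glucocorticoids, while progesterone promotes the growth of alveoli and holds back full milk protein synthesis until birth. Lactoferrin, lipocalin 2 and similar proteins are secreted by ductal cells of virgin glands as part of innate defence.

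Between 17047523 and 22760563 reads were counted in genes in each of the 4 libraries. Of 12306 genes tested, edgeR's quasi-likelihood test gave 0 at an adjusted p under 0.05 between diestrus and estrus. At an unadjusted p under 0.05 it gave 350 genes with higher values in diestrus (2.84% of those tested) and 701 with lower values (5.7%), 8.54% together. DESeq2 called 165 genes, 27 of them higher (0.219%) and 138 lower (1.12%). Both diestrus libraries were above both estrus libraries for 17.6% of the genes and below them for 17.8%. With 2 libraries per stage, the counts below are descriptions to be read against these shares, and the unadjusted p-values are given as such. The libraries carried the keratins and adhesion proteins of luminal cells: the 10 luminal markers summed to 29552 and 29313 CPM (read counts scaled to the size of each library) in estrus and 25785 and 29757 in diestrus. The 11 basal markers, of which 9 were measured, summed to 47.3 and 57.0 CPM in estrus and 91.8 and 71.4 in diestrus, and *Krt5* was at 12.4 CPM in diestrus 2 but at no more than 0.646 in the other 3. The 8 fibroblast markers, of which 4 were measured, summed to 147 and 214 CPM in estrus and 411 and 163 in diestrus, and the 9 epidermal markers, of which 5 were measured, to 135 and 148 against 188 and 206. The part of these cells in the results was not tested. Across genes, the rank correlation of a library's deviation with GC content was 0.138 and 0.083 in estrus and -0.017 and -0.286 in diestrus. *Ptprc* and *Adgre1*, which mark leukocytes and macrophages, had 0 counts in all 4 libraries. In bulk RNA a smaller number of cells of one kind and a lower level per cell cannot be told apart.

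Part of the milk protein genes had higher values in both diestrus libraries, and the others overlapped between the stages. Of the 20 genes listed 17 passed the filter on low counts (called measured here and below), and both diestrus libraries were above both estrus libraries for 8 of them, the reverse for 0, and the stages overlapped for 9, with 6 at an unadjusted p under 0.05 in the higher direction and 0 in the lower. Of all genes tested, 17.6% were above and 17.8% below. At that p, 2.84% of all genes were higher and 5.7% lower. The median log2 fold change of the 17 was 0.71, against 0.014 over all genes tested. Their summed level was 6221 and 9107 CPM in estrus and 14357 and 13632 CPM in diestrus. DESeq2 called 2 of them higher, *Spp1* and *Trf*, against 0.219% of all genes. Without estrus 1, which had the lowest level for 15 of the 17 genes, 2 members remained at an unadjusted p under 0.05, and the count was 7 to 9 when any of the other 3 libraries was left out.

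**Figure D1:**
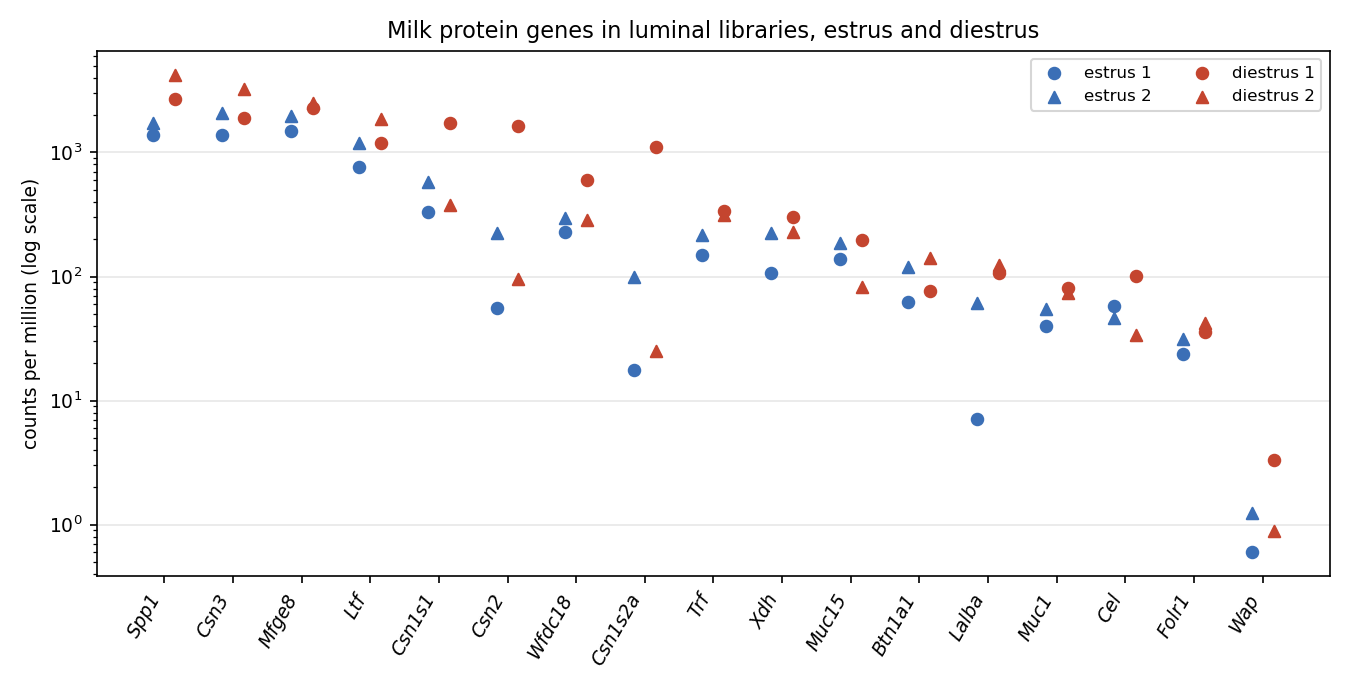
The 17 measured milk protein genes, ordered by mean level, with CPM on a log scale for each of the 2 estrus (blue) and 2 diestrus (red) luminal libraries (circle, replicate 1; triangle, replicate 2). Spp1, Trf, Mfge8, Muc1 and Lalba have both diestrus points above both estrus points, while Csn2, Csn1s2a and Csn1s1 are high in diestrus 1 alone.

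*Spp1* encodes osteopontin, a phosphoprotein of milk and of matrix adhesion. It had 1369.7 and 1729 CPM in estrus and 2685 and 4238 CPM in diestrus, a log2 fold change of 1.16 (standard error 0.29, n = 2 per stage, edgeR unadjusted p = 0.00394, adjusted p = 0.253, DESeq2 adjusted p = 0.00256). Both diestrus libraries were above estrus, and also above proestrus and metestrus, which were at 2087 and 1650.3 CPM and at 1319 and 2148 CPM, respectively. *Trf*, the iron carrier transferrin, had 148 and 216 CPM in estrus against 340.1 and 313 in diestrus, a log2 fold change of 0.85 (standard error 0.26, edgeR adjusted p = 0.361, DESeq2 adjusted p = 0.048). The other iron-binding milk protein, lactoferrin (*Ltf*), had 767 and 1182 CPM in estrus and 1196 and 1864 in diestrus (log2 fold change 0.65, standard error 0.25). Diestrus 1 and estrus 2 were close for *Ltf*, and the separation rested on diestrus 2 and estrus 1.

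*Lalba*, which encodes the subunit of lactose synthase that is specific to the mammary gland, had the widest range of the separated milk genes. Its level was 7.14 and 60.9 CPM in the estrus libraries and 107 and 123 CPM in the diestrus libraries. The log2 fold change of 1.77 (standard error 0.76, edgeR adjusted p = 0.576) became 0.92 without estrus 1 and 4.01 without estrus 2, where edgeR called it (adjusted p = 0.0294). Both pools of proestrus, at 68.9 and 72.9 CPM, were between estrus and diestrus. Genes of the milk fat globule membrane gave smaller differences. *Muc1*, a membrane mucin, had 39.7 and 54.3 CPM in estrus and 80.7 and 73.1 in diestrus (log2 fold change 0.71, standard error 0.22, unadjusted p = 0.0112). *Mfge8*, the lactadherin that tags membranes for uptake, had 1488 and 1983 against 2261 and 2483 CPM (log2 fold change 0.45, standard error 0.19). *Xdh*, the oxidoreductase of the globule coat, had 107 and 226 CPM in estrus and 303 and 230.4 in diestrus, so that estrus 2 almost reached diestrus 2. *Btn1a1*, its partner butyrophilin, overlapped between the stages, with 61.8 and 119 CPM in estrus and 76.2 and 141 in diestrus. *Muc15* was the 1 measured member with a negative log2 fold change (-0.21, standard error 0.49). The folate receptor gene *Folr1* had both diestrus libraries above estrus, at 35.6 and 42.4 against 23.9 and 31.3 CPM.

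For 3 of the caseins, the main milk proteins, the stages overlapped and 1 library stood apart. *Csn2* (β-casein, chromosome 5, 87692624 to 87699630, GRCm38) had 1645 CPM in diestrus 1 and 95.1 in diestrus 2, with 55.7 and 225 CPM in estrus. *Csn1s2a* (chromosome 5, 87774567 to 87788797) had 1099 and 25.3 CPM in the 2 diestrus libraries against 17.6 and 98.8 CPM in estrus. *Csn1s1* (chromosome 5, 87666208 to 87682578) had 1740.2 and 380.4 CPM in diestrus and 331 and 581 in estrus. For all 3 genes diestrus 1 was the highest of the 8 luminal libraries, and diestrus 2 lay between the estrus libraries. The log2 fold changes were 2.64 for *Csn2*, 3.28 for *Csn1s2a* and 1.22 for *Csn1s1*, with standard errors of 1.34, 1.55 and 0.83. Without diestrus 1 they were -0.56, -1.20 and -0.26. *Csn3* (κ-casein, chromosome 5, 87925579 to 87932665), which keeps casein micelles in solution, had the reverse order of the diestrus pools, at 1887 and 3224 CPM, with 1381 and 2070.1 in estrus. *Glycam1*, a mucin-like milk protein below the filter, had 77 counts in diestrus 1 and 7 to 11 in the other 3 libraries. *Wap*, the whey acidic protein that marks late pregnancy, had at most 3.35 CPM, in diestrus 1.

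The sequences upstream of 3 of these caseins are shown because the genes were high together in diestrus 1 and lie within 1 stretch of chromosome 5. They were read from RefSeq (GRCm38.p6), 5′ to 3′ on the strand of the gene, and the capitals mark matches to TTCNNNGAA, the letters bound by Stat5, or to AGAACA, the half-site read by progesterone and glucocorticoid receptors, searched on both strands. For *Csn2* only the surroundings of the match are given, on the minus strand at chr5:87699499-87699528. A longer annotated transcript overlaps its 250-base window, and the stretch shown lies within the gene span given above. The spans above are from GENCODE, and the RefSeq start sites used here differ from them for *Csn2* and *Csn1s2a*. The windows of *Csn1s1* (chr5:87665958-87666207, plus strand) and *Csn1s2a* (chr5:87774200-87774449, plus strand) are the 250 bases before the start site.
Csn2: tcacgtagacTTCTTGGAAttgaagggact
Csn1s1: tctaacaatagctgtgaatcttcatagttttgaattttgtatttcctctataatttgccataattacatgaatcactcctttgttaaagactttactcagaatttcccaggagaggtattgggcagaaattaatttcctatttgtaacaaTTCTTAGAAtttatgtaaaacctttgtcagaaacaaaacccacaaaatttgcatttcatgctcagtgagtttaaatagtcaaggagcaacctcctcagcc
Csn1s2a: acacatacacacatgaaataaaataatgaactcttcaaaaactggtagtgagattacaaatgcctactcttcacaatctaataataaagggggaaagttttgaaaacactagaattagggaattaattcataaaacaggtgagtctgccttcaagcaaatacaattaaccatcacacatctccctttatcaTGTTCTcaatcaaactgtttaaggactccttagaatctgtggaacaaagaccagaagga
The Stat5 letters ended 85 bases before the RefSeq start of *Csn2* and 92 bases before that of *Csn1s1*. They were not in the window of *Csn1s2a*, which held the half-site 54 bases before its start. Among all 32817 promoter windows of this length, 7.01% held the Stat5 letters and 16.1% the half-site. Of the 13 listed milk protein genes with a window, 3 held the Stat5 letters, the other being *Glycam1*.

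The same pools of mice had also given the basal, fat and stromal libraries, which allows the diestrus 1 pattern to be followed outside the luminal sort. On a scale set over all 32 adult libraries, *Csn2* was at 296 CPM in the fat fraction of diestrus 1 and at no more than 4.77 CPM in the other 7 fat libraries. In basal cells of diestrus 1 it was at 7.77 CPM, with at most 0.52 in the other 7. In the stromal cells of diestrus 1 it was at 10.6 CPM and at most 3.07 in the other stromal libraries. *Csn1s2a* behaved likewise, at 149 CPM in fat and 9.28 in basal cells of diestrus 1. The highest library was therefore diestrus 1 in each of the 4 fractions for both genes. On the same scale the luminal library of diestrus 1 was at 1380 CPM for *Csn2* and 922 CPM for *Csn1s2a*. The part of luminal RNA in the basal and stromal values was not tested. The fat fraction of diestrus 1 also had the highest level of a luminal keratin: *Krt18* was at 353 CPM there and at 40.7 to 115 CPM in the other 7. Its part in the fat values was not tested.

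**Figure D2:**
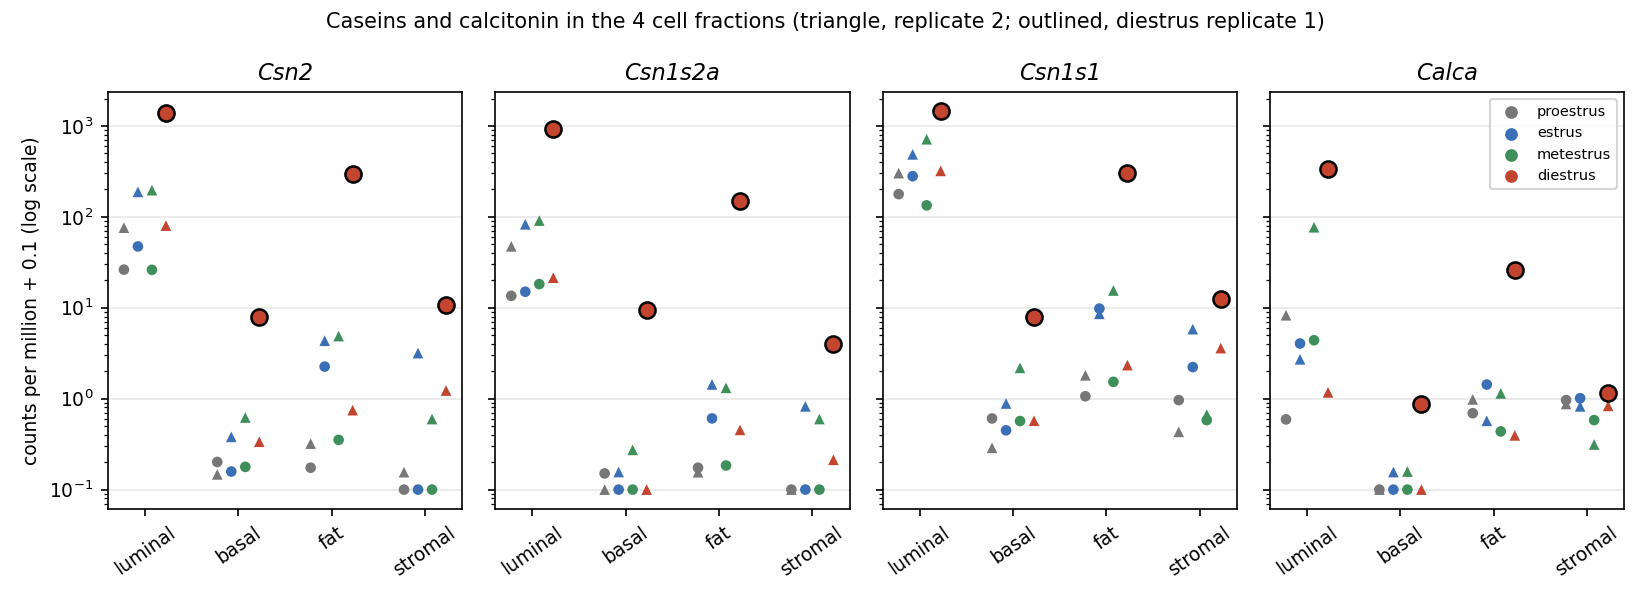
Csn2, Csn1s2a, Csn1s1 and Calca in the luminal, basal, fat and stromal libraries of the 8 adult pools, as CPM plus 0.1 on a log scale (colours give the stage; triangles are replicate 2; the outlined circle is diestrus replicate 1). The outlined point is the highest of each fraction for the 3 caseins, at 295.6 CPM in fat and 7.77 CPM in basal cells for Csn2.

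Secreted defence proteins showed the largest median of the 19 gene lists, a log2 fold change of 0.72 over 19 measured members. Of these, 6 were at an unadjusted p under 0.05 with higher values in diestrus and 0 with lower values. The shares of all genes were 2.84% and 5.7%. Both diestrus libraries were above both estrus libraries for 5 and below them for 1, where 17.6% and 17.8% of all genes were. The log2 fold changes of the list ranged from -0.69 to 2.57. *S100a8*, a calcium-binding protein of inflamed epithelia and neutrophils, had 2.69 and 7.59 CPM in estrus and 18.6 and 15.7 CPM in diestrus (log2 fold change 1.75, standard error 0.46, edgeR adjusted p = 0.255, DESeq2 adjusted p = 0.00781). The copper-binding plasma protein gene *Cp* (ceruloplasmin) had 157 and 259.8 CPM in estrus and 319 and 389.9 CPM in diestrus (log2 fold change 0.77, standard error 0.22, DESeq2 adjusted p = 0.0466). These were the 2 members that DESeq2 called. *Saa1*, an acute phase protein, was low throughout, at 0.513 and 3.01 CPM in estrus and 13.2 and 5.71 in diestrus. *Lbp*, which binds bacterial lipopolysaccharide, had 68 and 101 CPM in estrus and 128 and 111 in diestrus. The siderophore-binding protein *Lcn2* overlapped between the stages, with 894 and 1276 CPM in estrus and 1182 and 2422 in diestrus. Without estrus 1 the count of 6 members became 1, and it was 6 to 9 without any of the other 3 libraries. *Bpifb1*, a secreted airway and glandular protein, was the remaining member of the 6, at 0.128 and 0.52 CPM in estrus and 3.29 and 0.499 in diestrus. The 9 leukocyte markers, of which 2 were measured, summed to 8.93 and 15.5 CPM in estrus and 10.6 and 10.4 in diestrus.

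The machinery of secretion had a median difference near that of all genes. Of 30 genes of the secretory pathway, 7 had both diestrus libraries below estrus and 1 above, where 17.8% and 17.6% of all genes were. Only 1 gene was at an unadjusted p under 0.05, against 8.54% of all genes. That gene was *Kdelr3*, a receptor that returns chaperones to the endoplasmic reticulum, with 9.4 and 10.2 CPM in estrus and 6.58 and 5.99 in diestrus (log2 fold change -0.64, standard error 0.21, unadjusted p = 0.0139). The disulfide isomerase gene *Pdia6* had 344 and 343 CPM in estrus, 261 and 289 in diestrus and 497 and 444 in proestrus. Among 25 genes of milk lipid synthesis, 1 was at an unadjusted p under 0.05, against the same 8.54% of all genes. It was the desaturase *Scd2*, at 61.6 and 70.6 CPM in estrus and 75.9 and 99 in diestrus. The median log2 fold change was 0.11 for the lipid genes and -0.088 for the secretory pathway, close to the 0.014 of all genes. Of 22 transporters, *Slc34a2*, which carries phosphate into milk, had 1.5 and 2.65 CPM in estrus and 4.99 and 4.82 in diestrus (unadjusted p = 0.0241). *Slc9a3r1*, a scaffold of apical transporters, had the opposite order, 158 and 185 against 123 and 119 CPM (log2 fold change -0.50, standard error 0.13, unadjusted p = 0.00438).

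**Figure D3:**
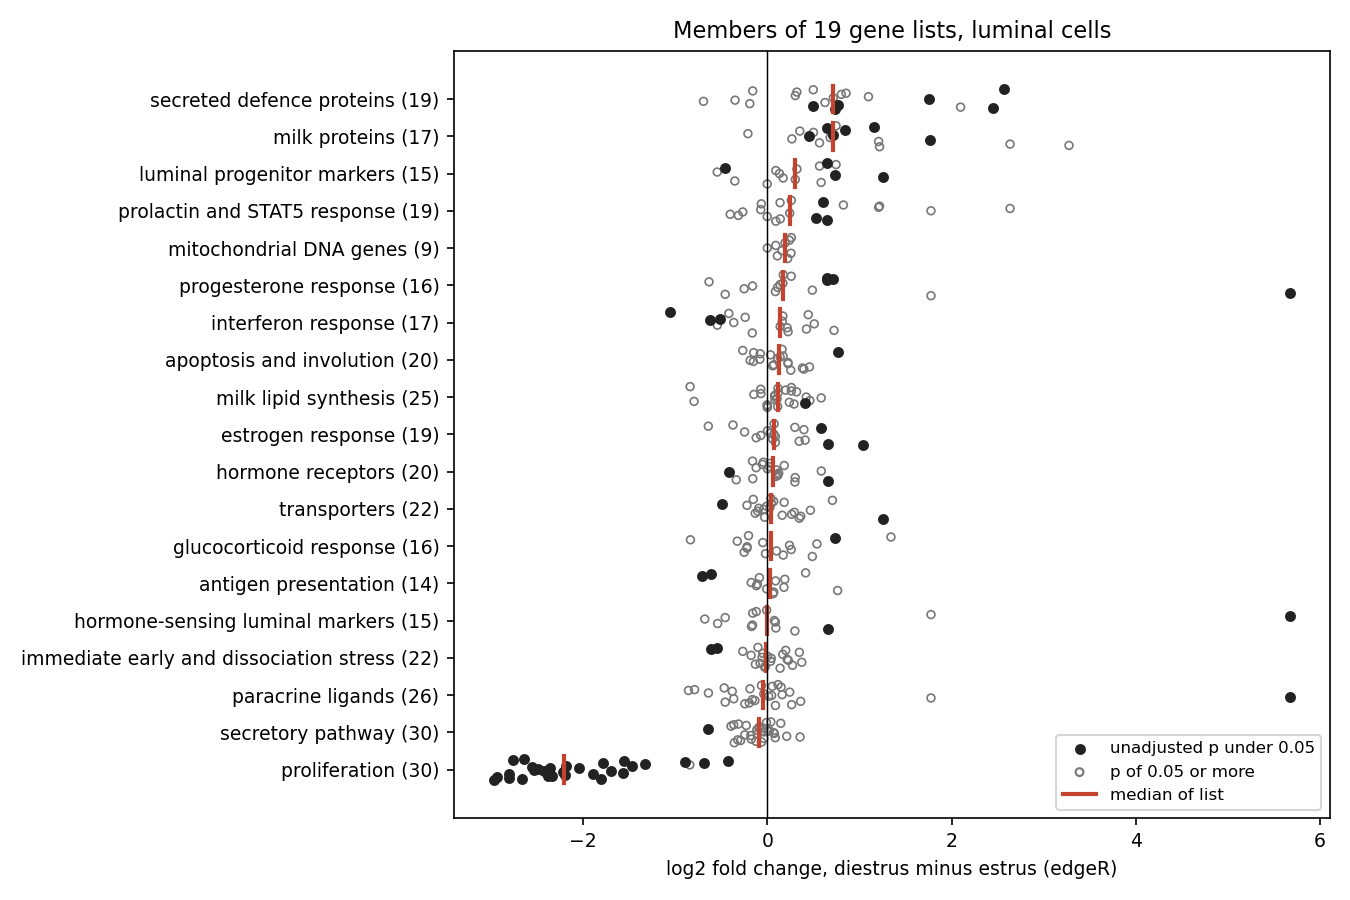
Log2 fold change of diestrus over estrus for each measured member of 19 gene lists, ordered by the median (red bar), with the number of members in brackets and filled points for an unadjusted p under 0.05. The medians of the milk proteins (0.71) and secreted defence proteins (0.72) lie highest, and that of the proliferation genes (-2.21) lies apart from all others.

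Among 20 hormone receptors and their cofactors, the progesterone receptor gene *Pgr* had the smallest p. *Pgr*, itself a target of estrogen, had 228 and 182 CPM in estrus and 284 and 364 CPM in diestrus. The log2 fold change was 0.66 (standard error 0.22, unadjusted p = 0.0171, adjusted p = 0.419), and estrus was the lowest of the 4 stages, with 429.6 and 285 CPM in proestrus and 278 and 239.7 in metestrus. *Esr1*, the estrogen receptor, had 162 and 143 CPM in estrus and 189.5 and 185 CPM in diestrus, without overlap between these stages (log2 fold change 0.30, standard error 0.21, unadjusted p = 0.199). Proestrus and metestrus spanned this whole range for *Esr1*, at 223 and 166 CPM in proestrus and 211 and 138 in metestrus. *Thra*, a thyroid hormone receptor, had lower values in diestrus, 29.4 and 37 CPM against 41.3 and 47.5 in estrus (unadjusted p = 0.0303). In all, both diestrus libraries were above both estrus libraries for 5 of the 20 receptors and cofactors and below them for 2. Of all genes, 17.6% and 17.8% were so. The median log2 fold change of the 20 was 0.061.

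Of 19 measured genes of the estrogen response, 3 were at an unadjusted p under 0.05 with higher values in diestrus, against 2.84% of all genes. None had lower values at that p. Both diestrus libraries were above both estrus libraries for 5 of the 19 and below for 2, where 17.6% and 17.8% of all genes were. The stages overlapped for 12, and the median log2 fold change of the list was 0.073. *Pgr* was among the 3 genes. *Greb1*, a cofactor of the estrogen receptor, had 14.8 and 14 CPM in estrus and 38.4 and 21 in diestrus (log2 fold change 1.04, standard error 0.42, unadjusted p = 0.0374). *Stc2*, a secreted glycoprotein hormone, had 313 and 309 CPM in estrus and 340.1 and 591 in diestrus (log2 fold change 0.58, standard error 0.24). Diestrus 2 stood well above the other 3, and diestrus 1 was just above estrus. The count of 3 became 1 without estrus 1, without estrus 2 or without diestrus 2.

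Of 16 measured genes of the progesterone response, 4 were at an unadjusted p under 0.05 with higher values in diestrus, against 2.84% of all genes, and 0 with lower values. They were *Muc1* and *Ltf*, described above, *Stat5a* and *Calca*. Without estrus 1 the count was 0. The classical paracrine effectors of progesterone did not share a direction. *Wnt4*, a ligand that acts on basal cells, had 75.9 and 66.6 CPM in estrus and 43.8 and 59.9 CPM in diestrus (log2 fold change -0.46, standard error 0.21, unadjusted p = 0.0601). It had its highest values in proestrus, at 91.1 and 83.4 CPM. *Tnfsf11*, the RANK ligand that drives proliferation of receptor negative cells, was near the limit of detection, at 0.0427 and 0.468 CPM in estrus and 1.53 and 0.166 CPM in diestrus. Its log2 fold change of 1.78 had a standard error of 1.52 and was -0.50 without diestrus 1. *Calca*, which encodes calcitonin and its related peptide, had 399.9 CPM in diestrus 1, 1.28 in diestrus 2 and 4.66 and 3.12 in estrus. Diestrus 1 was the 1 high library of the 4, and the log2 fold change of 5.67 (standard error 2.20) was -1.61 without that library. Metestrus 2 was the next highest for *Calca*, at 92.1 CPM against 5.11 in metestrus 1. Over all 26 measured paracrine ligands, 1 had both diestrus libraries above estrus and 5 had both below, where 17.6% and 17.8% of all genes did. The median log2 fold change of the 26 was -0.052.

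**Figure D4:**
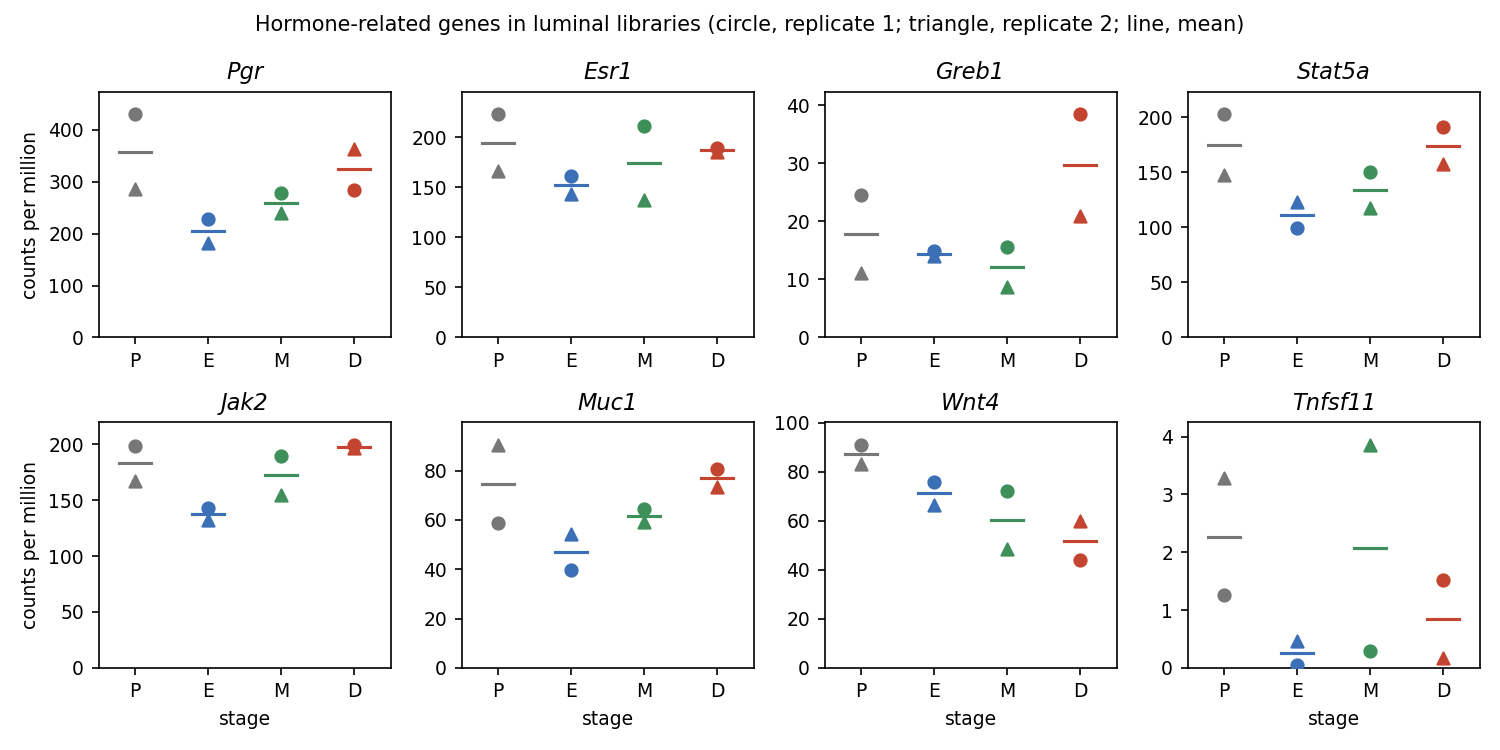
CPM of 8 hormone-related genes in the luminal libraries of proestrus (P), estrus (E), metestrus (M) and diestrus (D), with 1 point per library and a line at the mean of 2. Pgr, Stat5a, Jak2 and Muc1 have both diestrus points above both estrus points, Wnt4 has both below, and Tnfsf11 stays under 4 CPM.

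In the list of the prolactin and Stat5 response, a kinase and a transcription factor had the smallest p-values. *Jak2*, the kinase bound to the prolactin receptor, had 143 and 132 CPM in estrus and 199.7 and 196 CPM in diestrus (log2 fold change 0.52, standard error 0.14, unadjusted p = 0.0056, adjusted p = 0.275). *Stat5a* had 99.5 and 123 CPM in estrus and 191 and 158 CPM in diestrus (log2 fold change 0.65, standard error 0.20, unadjusted p = 0.0119). The insulin receptor substrate *Irs1* had 28.5 and 38.4 CPM in estrus and 41.8 and 59.7 in diestrus (log2 fold change 0.60, standard error 0.23). These were the 3 of 19 measured members at an unadjusted p under 0.05, against 8.54% of all genes. Both diestrus libraries were above estrus for 4 of the 19 and below for 0, where 17.6% and 17.8% of all genes were. The stages overlapped for 15, and the log2 fold changes of the list ranged from -0.40 to 2.64. *Cish*, another member, had 26.5 and 31.6 CPM in estrus and 19.9 and 26.7 in diestrus on the scale of all 32 adult libraries. Leaving out 1 library changed the count of 3 to 1 (estrus 1) or to 5 (estrus 2 or diestrus 2). The casein members of this list were carried by diestrus 1, and without that library the list's median log2 fold change went from 0.24 to 0.043. Glucocorticoid targets had no common direction: *Fkbp5*, a chaperone of steroid receptors, had 69.6 and 104 CPM in estrus and 148 and 95.1 in diestrus, and the median of 16 measured members was 0.039.

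Among the markers of luminal subsets DESeq2 called 1 gene. *Itgb3*, an integrin of luminal progenitors, had 20.5 and 25 CPM in estrus and 34.2 and 74.8 CPM in diestrus. The log2 fold change was 1.26 (standard error 0.32, edgeR adjusted p = 0.254, DESeq2 adjusted p = 0.00703), and it was 1.72 without diestrus 1 and 0.58 without diestrus 2. Another progenitor marker, *Lurap1l*, had the reverse order, 128 and 174 CPM in estrus and 94.7 and 125 in diestrus. Of 15 progenitor markers 3 were at an unadjusted p under 0.05 with higher values and 1 with lower values, against 2.84% and 5.7% of all genes. The other higher members were *Lcn2* and *Ltf*, given above. Both diestrus libraries were above both estrus libraries for 2 of the 15 and below for 1, where 17.6% and 17.8% of all genes were. The stages overlapped for 12, and the median was 0.30. Among 15 markers of hormone-sensing cells the median was -0.0079, and the 2 at an unadjusted p under 0.05 were *Pgr* and *Calca*. *Ly6d*, an anchored surface protein of this subset, had 221 CPM in diestrus 1 but 664 in diestrus 2, beside 726 and 692 in estrus.

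Outside the lists, the gene with the smallest p in the higher direction was *Cbr2*, a carbonyl reductase. It had 23.5 and 29.98 CPM in estrus and 77.8 and 100.2 CPM in diestrus, 3.33-fold higher by the fit (log2 fold change 1.74, standard error 0.24, unadjusted p = 7.76e-05, adjusted p = 0.204). Each of the 4 libraries of proestrus and metestrus was above estrus and below diestrus for *Cbr2*, at 53.2 and 66.1 CPM in proestrus and 47.6 and 73.8 in metestrus. DESeq2 called it (adjusted p = 5.2e-09), and edgeR called it when the replicate number was a block (adjusted p = 0.0318). *Cdh13*, a cadherin without a cytoplasmic tail, had 12.4 and 9.46 CPM in estrus and 25.2 and 85.2 CPM in diestrus (log2 fold change 2.33, standard error 0.50, DESeq2 adjusted p = 0.0314). *Tnip3*, an inhibitor of NF-kappaB signalling, had 5.68 and 6.23 CPM in estrus and 14 and 16.2 in diestrus (log2 fold change 1.34, standard error 0.20, DESeq2 adjusted p = 0.000292). Diestrus was the highest of the 4 stages for *Tnip3*. *Fth1*, the heavy chain of the iron store ferritin, had 1173 and 1330.3 CPM in estrus and 1886 and 1866 CPM in diestrus, with a log2 fold change of 0.58 (standard error 0.14, DESeq2 adjusted p = 0.00818). The transcription factor *Etv6*, the endocytic adaptor *Dab2* and the actin-binding protein *Ablim1* had log2 fold changes of 0.54, 0.86 and 0.86. Further genes named by their rank of p were *Zfp810*, *Nudt7*, *Cep95*, *Tia1*, *Nav2* and *Pvt1*, with log2 fold changes of 0.56 to 0.95.

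On the lower side, several of the leading genes do not belong to the cell cycle. *Retsat*, a retinol saturase, had 25.6 and 22.9 CPM in estrus and 11.3 and 12.3 in diestrus (log2 fold change -1.04, standard error 0.14, unadjusted p = 7.11e-05, DESeq2 adjusted p = 0.000292). *Gbp2*, a GTPase induced by interferon gamma, had 231 and 227 CPM in estrus and 126 and 95.9 in diestrus (log2 fold change -1.04, standard error 0.17, DESeq2 adjusted p = 2.26e-05). Both estrus libraries were above the 6 other luminal libraries for both genes, as they were for 5.4% of all genes tested. For *Foxj1*, the transcription factor of motile cilia, diestrus was the lowest stage, at 3.76 and 5.05 CPM against 12.9 and 10.7 in estrus (log2 fold change -1.42, standard error 0.23). *Pappa*, a protease that frees insulin-like growth factors, had 5.6 and 4.73 CPM in estrus and 1.23 and 0.277 in diestrus (log2 fold change -2.78, standard error 0.47), with 23.3 and 21.8 CPM in proestrus. *Cthrc1*, *Mxra8* and *Rundc3a* had log2 fold changes of -1.55, -0.86 and -0.89.

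The proliferation list gave the widest separation of the 19. Of its 30 genes, 29 had both diestrus libraries below both estrus libraries, where 17.8% of all genes did. At an unadjusted p under 0.05 there were 29 with lower values, against 5.7% of all genes. DESeq2 called 25 of the 30, all lower in diestrus, against 1.12% of all genes, and edgeR called 0. *Mki67*, which marks dividing cells, had 37.5 and 21 CPM in estrus and 3.58 and 3.88 in diestrus (log2 fold change -2.97, standard error 0.30, edgeR adjusted p = 0.0893). The list's sum was 739 and 385 CPM in the estrus libraries and 225 and 212 in the diestrus libraries, and edgeR called 19 of the list's genes when estrus 2 was left out. Its members *Top2a*, *Cdk1*, *Ccna2*, *Iqgap3*, *Cenpf* and *Ccnb2*, which serve replication and division, had log2 fold changes between -2.94 and -2.39. Outside the list, the division genes *Racgap1* and *Ect2* had -2.78 and -2.17. The estrus libraries differed in level, and the median log2 fold change of the list, -2.21, was -1.42 without estrus 1.

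In the remaining lists 0 to 3 members were at an unadjusted p under 0.05, against 8.54% of all genes, and DESeq2 called 0. Of 22 immediate early and dissociation stress genes, 2 were at an unadjusted p under 0.05, the heat shock genes *Hspa1a* and *Hspa1b*, which are near-identical copies. *Hspa1a* had 404 and 371 CPM in estrus and 308 and 199.6 in diestrus (log2 fold change -0.61, standard error 0.22). In the interferon response list 6 of 17 genes had both diestrus libraries above estrus and 6 had both below, where 17.6% and 17.8% of all genes did. The median log2 fold change of the list was 0.139. The 3 at an unadjusted p under 0.05 were lower, against 5.7% of all genes. Among them was *Stat2* (29.96 and 23.4 CPM in estrus, 15 and 19.7 in diestrus). *H2-DMb1* and *H2-DMa*, which load class II molecules, were the 2 of 14 antigen presentation genes at an unadjusted p under 0.05, with log2 fold changes of -0.61 and -0.71. *B2m*, the light chain of class I molecules, was at 1531 CPM in diestrus 1 and 1093 in metestrus 2, and at 506 to 637 in the other 6 luminal libraries. Of 9 measured genes of mitochondrial DNA, 0 were at an unadjusted p under 0.05. In the list of apoptosis and involution *Clu*, the secreted chaperone clusterin, had 1349.8 and 1555 CPM in estrus and 3172 and 1773 in diestrus (log2 fold change 0.77, standard error 0.27), with diestrus 1 the highest of the 8 libraries.

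The difference between the stages in luminal cells was set against the same difference in basal cells, the other epithelial layer of the same glands. Of 13193 genes tested for a difference between these 2 effects, edgeR gave 0 at an adjusted p under 0.05 and 698 at an unadjusted p under 0.05 (5.29%), and DESeq2 gave 14. *Cbr2* had the smallest p in the positive direction. In basal cells it had 73.6 and 57.3 CPM in estrus and 55.8 and 55.4 in diestrus, so the luminal effect exceeded the basal one by 1.97 on the log2 scale (standard error 0.31, adjusted p = 0.271). *Cdh13* had 91.1 and 86.1 CPM in estrus basal cells and 52 and 57.7 in diestrus, a difference of 3.03 between the layers (standard error 0.56, adjusted p = 0.476). For *Gbp2* the basal values had the opposite order from the luminal ones, 36.1 and 50.6 CPM in estrus and 77.2 and 63.2 in diestrus (difference -1.73, standard error 0.31, adjusted p = 0.476). The further genes at the top of this comparison were *Col18a1*, *Mad2l1* and *Col17a1* with positive differences and *Pappa*, *Oaf*, *Nt5c3* and *Parp12* with negative ones. *Trf* had nearly the same log2 fold change in both layers, 0.85 in luminal and 0.87 in basal cells in this fit, at a basal level of 15 to 32.7 CPM.

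The diestrus libraries differed from each other more than the pairs of the other stages. Between diestrus 1 and diestrus 2, 53 genes were at least 4-fold apart and above 10 CPM in 1 of them, compared with 5 between the estrus libraries, 2 in proestrus and 14 in metestrus. In 15 genes diestrus 1 alone was at least 4-fold above both estrus libraries and diestrus 2. Besides *Csn2*, *Csn1s2a* and *Calca* these included *Agtr1a*, an angiotensin receptor, at 109 CPM in diestrus 1 and 20.9 in diestrus 2, and the ubiquitin-like *Ubd*, at 13.3 and 1.72 CPM. *Lars2*, the mitochondrial leucyl-tRNA synthetase, was at 10862 CPM in diestrus 1 and at 1468 to 2470.4 CPM in the other 7 luminal libraries. The genes *Gm15564* and *Gm26917*, which like *Lars2* can collect reads of ribosomal RNA, were also among the 15, at 105 and 65 CPM in diestrus 1 and at 17.6 and 4.49 CPM in diestrus 2. On the scale of all 32 adult libraries, *Lars2* was at 9112 CPM in luminal and 47253 CPM in stromal cells of diestrus 1, and it ranged from 859 to 106090 CPM over the stromal libraries. In the basal and fat libraries of diestrus 1, where *Csn2*, *Csn1s2a* and *Csn1s1* were also highest, it was at 1192 and 1154 CPM, within the range of the other libraries of those fractions. The part of such reads in the luminal values of diestrus 1 was not tested. Of the 15 genes, 8 were at least 2-fold higher in metestrus 2 than in metestrus 1, and 0 had the reverse. In 8 genes diestrus 1 alone was as far below, among them the iodide carrier *Slc5a5*, at 46.1 CPM against 431 in diestrus 2, the tryptophan-degrading enzyme *Ido1*, at 3.88 against 78.4, and the protease inhibitor *Cst3*, at 131 against 717 CPM. *Dmbt1*, a secreted mucosal scavenger protein, was at 2.06 CPM in diestrus 1, 271 in diestrus 2 and 34 and 24.6 in estrus. These values were carried by single pools of mice and were not shared by both diestrus libraries. The pool and its earlier or later place within the stage cannot be told apart for them.

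**Figure D5:**
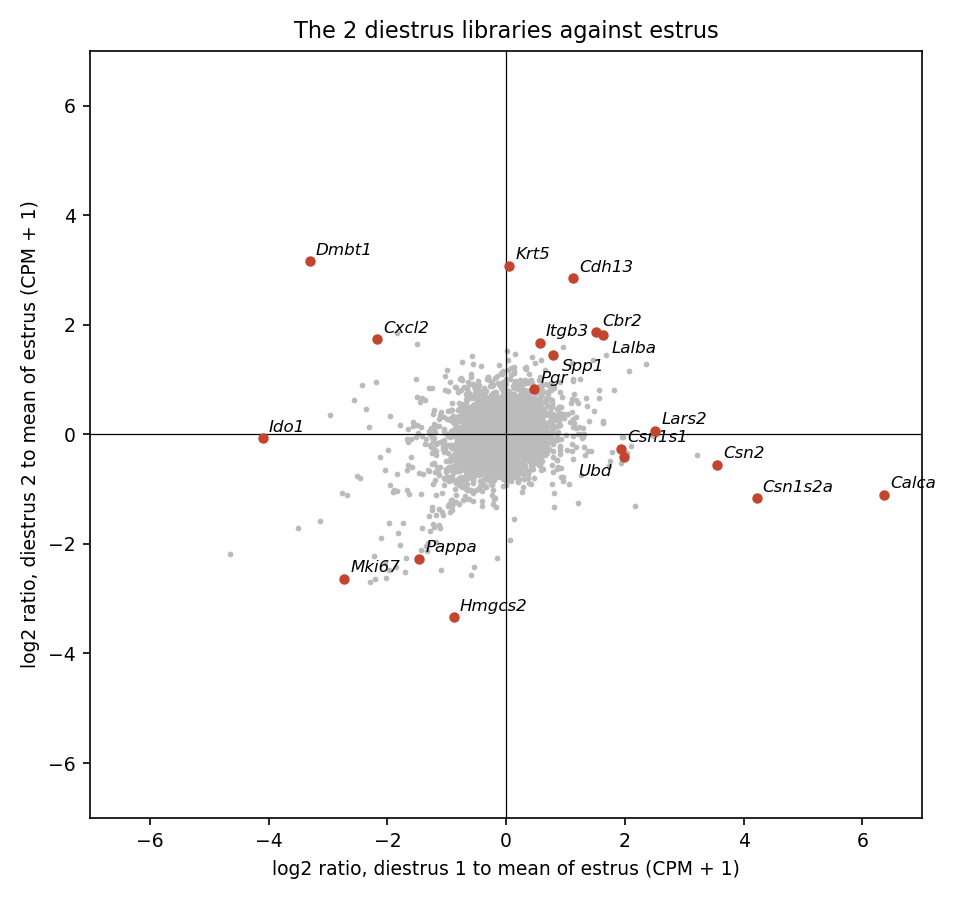
Log2 ratio of each diestrus library to the mean of the 2 estrus libraries, diestrus 1 on the horizontal and diestrus 2 on the vertical axis (CPM plus 1), for the genes with a mean log2 CPM of at least 2 (grey) and genes of interest (red). Cbr2, Spp1, Lalba and Pgr lie up and to the right, Mki67 and Pappa down and to the left, and Csn2, Csn1s2a and Calca lie to the right at no increase on the vertical axis.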

How the data were processed

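RNA sequencing of polyadenylated, strand-specific libraries was read single-end. The deposited values are whole-number counts of reads per gene: the authors aligned reads with TopHat2 2.1 and Bowtie 1.1.0 to GRCm38 (mm10) and counted them with HTSeq, whose version is not given in the sources used here. Of 25044 gene identifiers 24739 matched a symbol. No column of values was left unassigned.

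A gene was tested if 2 or more of the 8 adult luminal libraries exceeded 1 CPM. Counts were scaled by TMM and fitted with edgeR 4.0.16 (R 4.3.3, quasi-likelihood F-test, groups for the 4 stages, contrast diestrus minus estrus, Benjamini-Hochberg adjustment, threshold 0.05). DESeq2 1.42.0 was an alternative. The common biological coefficient of variation was 15.7%. The luminal and basal effects were compared by an interaction contrast over 16 libraries, where the luminal and basal libraries of a pool came from the same mice (correlation of their deviations 0.234 in diestrus and 0.108 in estrus). Replicates were pools of mice, so p-values measure the spread between pools.

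Named genes were all measured milk protein genes, *Pgr*, *Wnt4*, *Esr1*, *Krt18* and *Tnfsf11*, the 15 with the smallest p in each direction that did not overlap between the stages at a mean log2 CPM of at least 2 (predicted genes left out; some genes that the rule names are not reported here), the 4 members of each other list with the smallest p, and 5 per direction in the luminal and basal comparison. *Krt5*, *Glycam1* and the genes with 1 diestrus library at least 4-fold apart at 10 CPM or more were chosen after their values were seen, as were *Bpifb1* and the basal values of *Trf*. The members and gene lists were chosen with earlier results of these data known. The edgeR fit of the luminal libraries, with the contrast diestrus minus estrus, was the fit tested on simulated counts. Alternatives were other size factors, no filter, other tools and sample sets, a replicate block, GC and length offsets, and leaving out each library. The counts of list members without each library were added after seeing the data.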

Additional observations from a re-analysis of the deposited data

How the results depend on the processing

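Between diestrus and estrus the 0 genes called by edgeR became 649 with no filter on low counts (250 higher, 399 lower, 20903 tested), 165 with DESeq2 and 1 with the replicate block, alone or with GC and length offsets. Leaving out 1 library gave 0 to 86 calls: 86 without estrus 2, 23 without diestrus 2 and 2 without diestrus 1. For the luminal and basal difference the 0 calls became 189 with no filter and 14 with DESeq2, and 0 to 3 when a library was left out, 3 of them without diestrus 1. Taking the pools as a block gave 0. The replicate numbers of estrus and diestrus mark an earlier or later pool or a pooling by cell number, not shared mice. The correlation of their deviations was 0.0371. The block covered all 4 stages, and between other stages the correlation ran from -0.376 (diestrus and metestrus) to 0.347 (proestrus and metestrus). The gene called with the block was *Cbr2*. Log2 fold changes turned direction without diestrus 1 for *Csn1s1* (-0.26; 1.93 at the other end of the range over left-out libraries), *Csn1s2a* (-1.20; 4.996), *Csn2* (-0.56; 3.97), *Cel* (-0.63; 0.93), *Tnfsf11* (-0.50; 4.10), *Calca* (-1.61; 6.66), *B2m* (-0.065; 1.28) and *mt-Nd4* (-0.017; 0.31). *Btn1a1* turned to -0.13 without estrus 1 and -0.25 without diestrus 2 (up to 0.81), *Muc15* to 0.02 without estrus 2 and 0.28 without diestrus 2 (down to -0.98), *Inhba* to 0.11 without estrus 1 (down to -1.33) and *Btg2* to -0.048 without diestrus 2 (up to 0.68). Of 1948 values for 115 named genes and alternatives, 1819 kept direction and side of the threshold and 115 passed it. The cause of these changes was not tested. With 2 pools per stage, differences near the spread between pools were not detectable.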

Other observations

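Many genes of fatty acid oxidation had lower values in both diestrus libraries. The list was written after values had been seen, so its counts are a description with no test. Of 34 genes listed 31 were measured, and both diestrus libraries were below both estrus libraries for 20 of them, above for 1 and overlapping for 10, where 17.8% and 17.6% of all genes were. At an unadjusted p under 0.05 by edgeR there were 13 with lower and 0 with higher values, against 5.7% and 2.84% of all genes. At an adjusted p under 0.05 edgeR called 0, and the median log2 fold change was -0.28. The count of 13 was 4 without estrus 1, 7 without diestrus 2, 9 without estrus 2 and 13 without diestrus 1. *Cpt1a*, which admits long-chain fatty acids to mitochondria, had 195 and 143 CPM in estrus and 106 and 102 in diestrus (log2 fold change -0.70, standard error 0.15, DESeq2 adjusted p = 0.0135). *Acaa2*, the thiolase of the last step of the cycle, had 79.2 and 74 CPM in estrus and 47.7 and 45 in diestrus. *Phyh*, a peroxisomal hydroxylase of branched fatty acids, had 350.4 and 255 CPM in estrus and 138 and 181 in diestrus. DESeq2 called these 3 and *Hadh* (59.4 and 54.3 CPM in estrus, 40.01 and 33.9 in diestrus). Both estrus libraries were above the 6 other luminal libraries for 13 of the 31, against 5.4% of all genes. The 9 adipocyte markers, of which 3 were measured, summed to 63.5 and 59.8 CPM in estrus and 38.0 and 50.2 in diestrus, with *Adipoq* at 3 counts or fewer in each, and their part in these values was not tested.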
